A study of Mus musculus with 8 samples.

Results

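The constitutive proteasome genes were followed in single-cell RNA-seq of mouse haematopoietic stem and progenitor cells (HSPCs) after treatment with IFNα. Members were all genes whose symbol begins with Psma, Psmb, Psmc or Psmd and a digit, leaving out the immunoproteasome genes Psmb8, Psmb9 and Psmb10, and 37 of the 27998 listed genes met this rule. Of these, 31 encode subunits of the constitutive particle in most tissues. The other 6 are Psmd5, Psmd9 and Psmd10, which encode chaperones of cap assembly, Psma8 and Psmb11, known from testis and thymus, and Psmc3ip, a partner of meiotic recombinases that shares the symbol stem and is not a proteasome subunit. A total of 36 members passed the filter on low counts. Psmb11 did not, with 5 UMIs (unique molecular identifiers, each standing for 1 captured transcript) in all 16 mice, and Psma8 was the lowest of the others with 6 to 227 UMIs a mouse.

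The cells were Lin- c-Kit+ (LK) bone marrow cells of wild-type C57Bl/6 mice aged 12 to 14 weeks, enriched with LK CD150+ CD48- CD34- haematopoietic stem cells (HSCs), and all were captured with a 3′ droplet assay. Control mice received 100 µl PBS under the skin, and treated mice received IFNα at 50000 IU for each 20 g of body weight, with cells taken 3, 24 or 72 h later. Each of the 4 groups held 4 mice, told apart by hashtag antibodies and pooled in 1 library, so the time point and its library cannot be told apart and all comparisons with control share 1 control library. Kept cells numbered 2474 in the control library, 1661 in the 3 h library, 3462 in the 24 h library and 2449 in the 72 h library. Median UMIs per cell were 18964.5, 12017, 18953.5 and 14763 in the same order. Counts were summed per mouse (1102706 to 26446327 UMIs), and control mouse 4 had only 58 cells. Libraries shared 9 to 69 barcodes by pair, with at most 1 kept in both. Levels below are scaled UMI counts (CPM, after TMM scaling) and are compared within a gene.

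The proteasome degrades proteins marked with ubiquitin. Outer rings of Psma subunits gate a barrel whose inner rings of Psmb subunits hold the catalytic sites, and a cap with an ATPase ring, ubiquitin receptors and a lid receives, unfolds and strips the substrate of its ubiquitin. Interferon is known to bring in the catalytic subunits Psmb8, Psmb9 and Psmb10 in place of Psmb5, Psmb6 and Psmb7. Constitutive subunit genes are known as a set that the transcription factor Nfe2l1 (Nrf1) can drive together through antioxidant response elements.

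Promoter sequences from RefSeq (GRCm38.p6, 250 bases before to 50 after a start) were available for 30 of the 37 members. None was available for Psma8, Psmb1, Psmb2, Psmb7, Psmc3, Psmd3 or Psmd7, so the catalytic subunit Psmb7 could not be searched. The antioxidant response element, searched as TGACNNNGC on both strands, was in 5 of them (16.7%, against 14.0% of 27025 genes), which are shown because they include 2 of the 3 catalytic subunits. Capitals mark the element, up to 15 bases flank it, and no base after the start is printed. Psmb5 (chr14:54618019-54618057, minus strand), Psmb6 (chr11:70525333-70525356, plus), Psmc6 (chr14:45329582-45329620, plus), Psmd12 (chr11:107479278-107479304, plus) and Psmd9 (chr5:123228144-123228182, plus) read as follows.
Psmb5: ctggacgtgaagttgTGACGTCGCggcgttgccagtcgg
Psmb6: gcggactaaagagagTGACGGAGC
Psmc6: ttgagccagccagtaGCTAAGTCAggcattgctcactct
Psmd12: tctGCTGTGTCAcatttgcccccctca
Psmd9: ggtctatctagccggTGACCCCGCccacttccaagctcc

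The core of the interferon-stimulated response element, searched as GAAANNGAA on both strands, was in 5 of the 30 (16.7%, against 9.76% of all genes). These are shown because the treatment was an interferon. They were Psmb3 (chr11:97703257-97703295, plus strand), Psmb4 (chr3:94886953-94886976, minus), Psmc2 (chr5:21786724-21786747, plus), Psmd4 (chr3:95042670-95042708, minus) and Psmd9 (chr5:123228016-123228054, plus), with the core in capitals. Psmc2 had another window, at an upstream start (chr5:21785025-21785324), which held no core.
Psmb3: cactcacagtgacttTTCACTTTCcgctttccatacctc
Psmb4: gtggcaaaggaccacTTCCGTTTC
Psmc2: ttccggtggggaagaGAAAGGGAA
Psmd4: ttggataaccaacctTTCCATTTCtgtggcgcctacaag
Psmd9: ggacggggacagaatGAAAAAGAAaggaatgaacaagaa

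An ETS site (CCGGAAG, both strands) was in 11 of the 30 members (36.7%, against 9.93% of all genes). They were Psma6, Psmc1, Psmc2, Psmc3ip, Psmc6, Psmd11, Psmd12, Psmd13, Psmd2, Psmd4 and Psmd6. Psma6 had another window without the site (chr12:55383972-55384271). A CCAAT box (CCAAT) was in 13 (43.3%, against 41.1%), and a heat shock element core (GAANNTTC) in Psmb5 alone (3.33%, against 9.04%). The 250 bases before the starts of Psmd4 (chr3:95042615-95042864, minus strand) and Psmd1 (chr1:86064369-86064618, plus) are shown because these 2 members were called higher at every time point after TMM scaling. Capitals mark, in Psmd4, the ETS site, a CCAAT box and the interferon element core, in that order. None of the 5 motifs occurs in the Psmd1 stretch.
Psmd4: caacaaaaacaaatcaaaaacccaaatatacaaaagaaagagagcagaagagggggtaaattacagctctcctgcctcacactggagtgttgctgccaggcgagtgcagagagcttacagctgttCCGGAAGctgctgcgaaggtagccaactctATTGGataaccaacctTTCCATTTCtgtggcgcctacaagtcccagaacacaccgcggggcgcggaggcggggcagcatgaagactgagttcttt
Psmd1: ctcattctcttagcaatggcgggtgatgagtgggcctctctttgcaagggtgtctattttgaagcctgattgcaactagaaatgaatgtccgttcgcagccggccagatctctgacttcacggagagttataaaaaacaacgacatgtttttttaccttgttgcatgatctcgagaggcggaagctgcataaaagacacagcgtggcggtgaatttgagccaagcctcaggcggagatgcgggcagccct

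In all kept cells together, 2 subunits of the cap base rose at every time point. At 3 h a few members of the rings rose or fell, and 3 lid members, Psmd2 of the base and the chaperone Psmd5 fell. By 72 h 27 members were lower, by 7.46 to 19.3%. The 19.3% was that of Psmc3ip, which is not a subunit (log2 change -0.31), and the largest fall of a subunit was that of Psmb3 (-0.28). With edgeR's quasi-likelihood test (a call is a Benjamini-Hochberg adjusted p under 0.05 over the 12042 genes tested), 5 members were higher and 10 lower at 3 h, beside 19.7% and 19.2% of all genes. At 24 h, 2 were higher and 5 lower, beside 14.5% and 13.8%, and at 72 h, 2 were higher and 27 lower, beside 18.9% and 18.5%. No member passed 2-fold at 3, 24 or 72 h, where 6.9%, 2.22% and 2.86% of all genes did. The median change of the tested members was -0.06, -0.06 and -0.19 on the log2 scale, against -0.03, 0.00 and 0.02 over all genes. Member genes took 0.743 to 0.774% of each control mouse's UMIs, 0.637 to 0.704% at 3 h, 0.704 to 0.737% at 24 h and 0.657 to 0.667% at 72 h.

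The scale bears on the 3 h comparison. With library size alone in place of TMM factors, the median of all genes at 3 h moved from -0.03 to -0.18, and 1 member was called higher and 27 lower. The changes at 3 h are therefore given relative to the bulk of genes. The 24 and 72 h splits were 2 higher and 7 lower, and 2 higher and 28 lower, with library size alone. Shares of all genes called with library size alone are not given here, so its counts stand without them. The make-up of the cells moved too. Myeloid progenitor-like cells were 27.6 to 30.7% of a control mouse's cells and 12.3 to 18.5%, 17.7 to 22.2% and 13.6 to 18.6% at 3, 24 and 72 h. HSC-like cells were 14.5 to 20.7%, 29.0 to 39.5%, 22.2 to 26.4% and 28.6 to 32.0%. In these sums fewer cells of a type and less RNA per cell cannot be told apart. Of 12 mitosis genes 10, 11 and 12 were lower at 3, 24 and 72 h, and of 99 ribosomal protein genes 57, 40 and 47 were higher and 25, 23 and 27 lower. Their part in the members' changes was not tested.

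**Figure D1:**
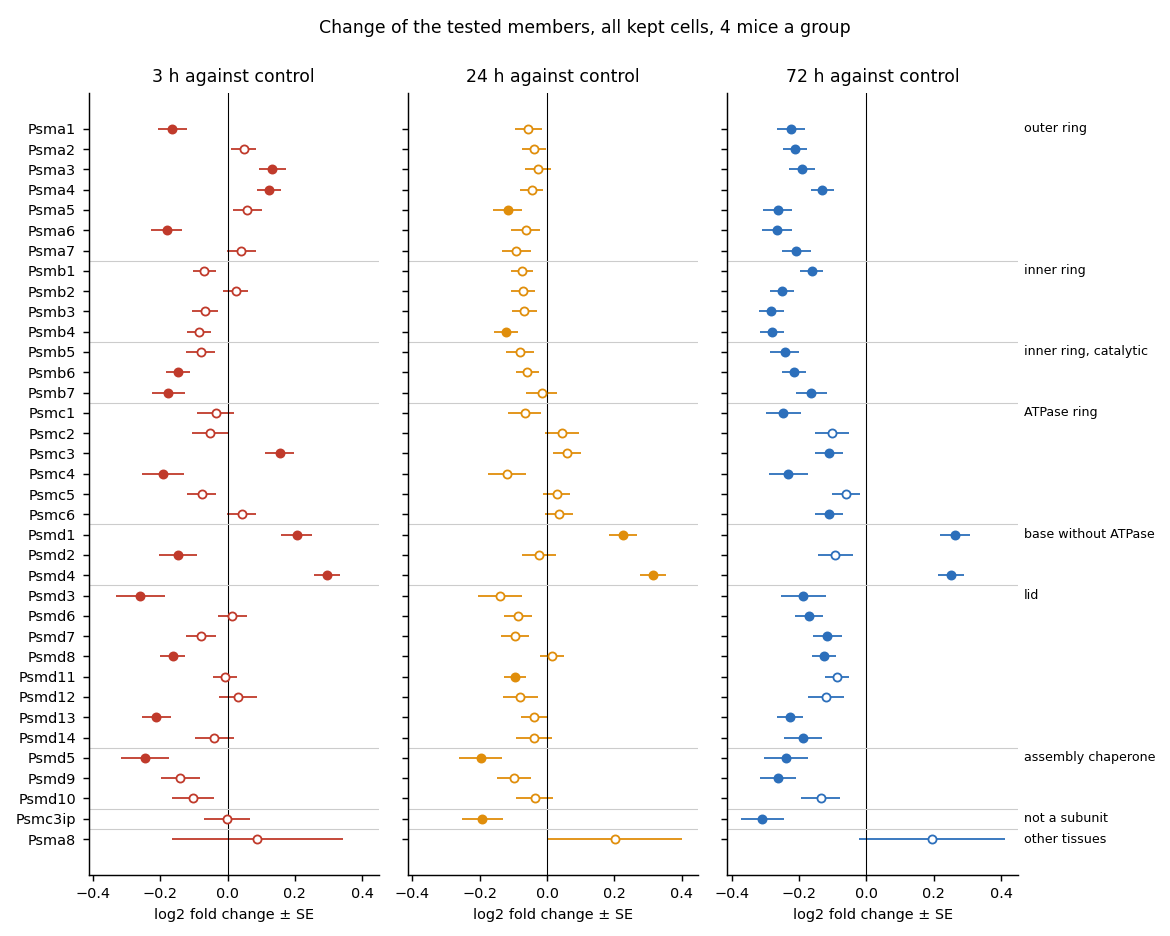
Each row is 1 of the 36 tested members, grouped by role, and each panel 1 time point against control. The x axis is the log2 fold change in all kept cells with its standard error (4 mice a group), and filled points have an adjusted p under 0.05. Psmd1 and Psmd4 stand to the right of 0 in all 3 panels, and 27 points are filled to the left at 72 h.

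Among the non-ATPase subunits of the base, Psmd4, a receptor that binds ubiquitin chains, was at 176, 162, 162 and 164 CPM in control mice 1 to 4. It was at 207, 196, 203 and 210.0 CPM at 3 h, 209, 202, 209 and 209 at 24 h, and 201, 207, 192 and 192 at 72 h. All 12 treated mice were above all control mice. The log2 change was 0.30 (SE 0.04, adjusted p = 3.1e-06) at 3 h, 0.32 (SE 0.04, adjusted p = 2.1e-06) at 24 h and 0.25 (SE 0.04, adjusted p = 2.8e-05) at 72 h, or 22.7%, 24.4% and 19.1%. Psmd1, a large scaffold subunit, was at 101, 94.8, 94.2 and 95.7 CPM in controls. Its values were 114, 104, 110.4 and 118 at 3 h, 116, 109, 111 and 116 at 24 h, and 118, 115, 112 and 119 at 72 h, with no overlap with control at any time. It rose by 15.3%, 16.9% and 20.0% (adjusted p = 0.001, 0.0004 and 6.4e-05). With library size alone only 1 member was called higher at 3 h, so at least 1 of Psmd4 and Psmd1 lost its 3 h call there. Psmd2, the other scaffold of the base, went from 107, 105, 98.3 and 102 CPM to 90.8, 87.2, 91.3 and 103 at 3 h (log2 change -0.15, adjusted p = 0.039). That call was lost in 5 of the fits without 1 mouse, with adjusted p up to 0.12, and Psmd2 was not called at 24 or 72 h.

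The catalytic subunits of the inner ring did not rise at any time point. Psmb5, the chymotrypsin-like subunit, was at 399, 377, 373 and 344 CPM in controls, 375, 337, 345 and 370.0 at 3 h, and 364, 344, 349.8 and 368 at 24 h. At 72 h it was at 313, 309, 335 and 316 CPM, below every control mouse, a fall of 0.24 on the log2 scale (SE 0.04, adjusted p = 0.00013). The changes at 3 and 24 h were both -0.08 (adjusted p = 0.15 and 0.16). Psmb6, the caspase-like subunit, was at 278, 268, 266 and 300.2 CPM in controls and 249, 239.8, 252 and 252 at 3 h. The groups did not overlap, and the fall was 9.70% (adjusted p = 0.0025). Its 24 h values of 257, 261, 269 and 269 overlapped with control, and its 72 h values of 232, 237, 238 and 240.4 lay below it (adjusted p = 6.3e-05). Psmb7, the trypsin-like subunit, went from 129.9, 126, 128 and 125 CPM to 108, 105, 119 and 119 at 3 h, stood at 123, 123, 126 and 134 at 24 h, and at 106, 114, 119 and 118 at 72 h. Its log2 changes were -0.18, -0.02 and -0.16 (adjusted p = 0.0074, 0.83 and 0.0096). The 72 h call was lost without 72 h mouse 1 (adjusted p = 0.052).

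The structural members of the inner ring, Psmb1 to Psmb4, were not called at 3 h, and Psmb4 alone was lower at 24 h. All 4 were lower at 72 h, by 10.7 to 17.8%. Psmb3 was at 406, 393, 391 and 388 CPM in controls, 368, 364, 379.5 and 398 at 3 h, 371, 359, 382 and 397 at 24 h, and 316, 323, 341 and 320.4 at 72 h (log2 change -0.28, SE 0.04, adjusted p = 4.6e-06). Psmb4 went from 305, 306, 303 and 325 CPM to 283, 284, 290.5 and 302 at 3 h, 280.5, 272, 282 and 296 at 24 h, and 246, 251, 255 and 261 at 72 h. For Psmb4 none of the treated groups overlapped with control, and the adjusted p was 0.068, 0.012 and 2.4e-06 at the 3 times.

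The outer ring split at 3 h, with Psma3 and Psma4 higher, Psma1 and Psma6 lower and 3 members not called. All 7 were lower at 72 h, by 8.69 to 16.8%. Psma3 went from 423, 416, 419 and 385 CPM in controls to 466, 424, 447 and 479.9 at 3 h, 409.7, 395, 394 and 428 at 24 h, and 353, 357, 370.2 and 370.3 at 72 h. So every 3 h mouse was above and every 72 h mouse below the controls. The log2 changes were 0.13 (adjusted p = 0.011), -0.03 (adjusted p = 0.66) and -0.19 (adjusted p = 6.0e-04). The rise at 3 h was lost without 3 h mouse 4 (adjusted p = 0.064), and with library size alone the 3 h change was -0.02. Psma6 moved the other way at 3 h, from 241, 253, 244 and 246 CPM to 226, 193, 219 and 231, was at 235, 230.3, 231 and 245 at 24 h and at 201, 195, 210.2 and 211 at 72 h. It fell by 11.8% at 3 h and 16.8% at 72 h (adjusted p = 0.0033 and 8.2e-05). Psma5 was at 271, 266, 268 and 280.2 CPM in controls, 302, 250.1, 281 and 293 at 3 h, 248, 244, 246 and 258 at 24 h, and 220.2, 224, 225 and 231 at 72 h. The 3 h mice fell on both sides of the controls, and the 24 and 72 h mice were all below them (adjusted p = 0.31, 0.042 and 5.9e-05).

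**Figure D2:**
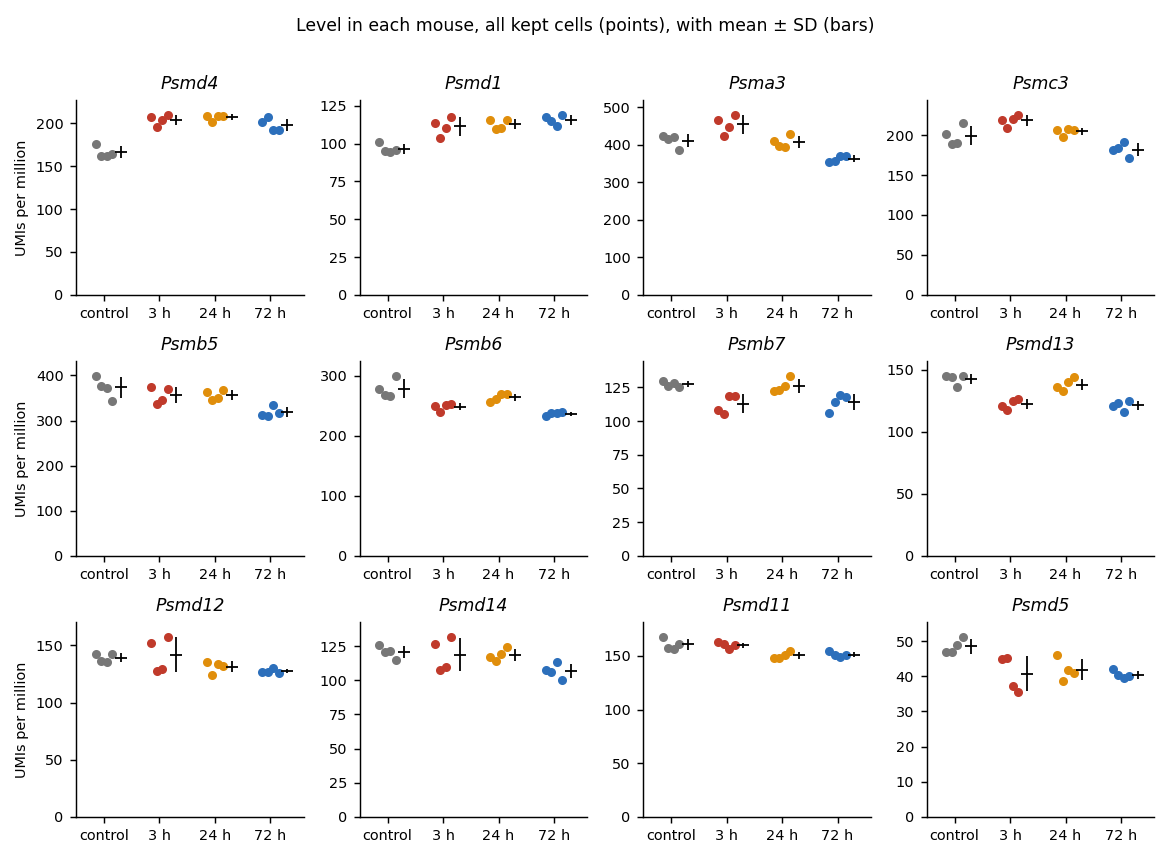
Points are the 4 mice of each group (CPM, all kept cells, y axis from 0) for 12 members, and bars beside them give the mean and SD. Psmd4 and Psmd1 are above control in all treated mice, while Psma3 and Psmc3 have their highest values at 3 h and their lowest at 72 h.

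In the ATPase ring, which unfolds substrates, only Psmc3 rose and only Psmc4 fell at 3 h, none of the 6 was called at 24 h, and 4 were lower at 72 h. The lowest adjusted p in the ring at 24 h was that of Psmc4, at 0.13 by edgeR (unadjusted p = 0.048) and 0.20 by DESeq2. Psmc3 was at 202, 189, 190.2 and 215 CPM in controls, 219, 209, 221 and 226 at 3 h, 206, 198, 208 and 207 at 24 h, and 181, 184, 191 and 171 at 72 h. Its 3 h and control mice overlapped through control mouse 4, and the changes were 0.15 (adjusted p = 0.0059) at 3 h and -0.11 (adjusted p = 0.038) at 72 h, the latter lost in 5 of the fits without 1 mouse. Psmc4 went from 111, 103, 108 and 89.6 CPM to 93.4, 82.4, 92.2 and 101 at 3 h, 98.0, 90.1, 101 and 101 at 24 h, and 85.0, 92.2, 94.5 and 88.2 at 72 h. Control mouse 4 was again the mouse that overlapped (adjusted p = 0.016 at 3 h, lost without control mouse 1 or 3 or 3 h mouse 2, and 0.0033 at 72 h). Psmc1 was at 75.5, 74.1, 72.4 and 91.4 CPM in controls and at 72.2, 73.7, 72.5 and 75.9 at 3 h. It was at 71.5, 69.99, 70.8 and 75.5 CPM at 24 h and 59.8, 66.3, 63.2 and 65.1 at 72 h (log2 change at 72 h -0.25, adjusted p = 7.1e-04). Psmc2 and Psmc5 were not called at any time.

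In the lid, which removes ubiquitin before degradation, none rose, 3 of 8 fell at 3 h (Psmd3, Psmd8 and Psmd13), 1 at 24 h (Psmd11) and 6 at 72 h. Psmd14, the deubiquitinase, was at 126, 120.4, 121 and 115 CPM in controls, 126, 107, 109.5 and 132 at 3 h, 117, 114, 119 and 124 at 24 h, and 108, 106, 113 and 100.2 at 72 h. The 72 h mice lay below all controls (adjusted p = 0.01), and the 3 h mice spread on both sides (adjusted p = 0.62). Psmd11, which clamps cap to core, was at 168, 158, 156 and 161 CPM in controls, 163, 161, 157 and 159.9 at 3 h, 148, 148, 151 and 154 at 24 h, and 154, 151, 149 and 150.4 at 72 h. The 24 and 72 h mice were below every control (adjusted p = 0.041 and 0.051). Psmd12, a lid scaffold, was at 142, 137, 135 and 143 CPM in controls and 152, 128, 129.7 and 158 at 3 h. At 24 h it was at 135, 124, 134 and 132 CPM and at 72 h at 127, 127, 130.4 and 126, with adjusted p = 0.70, 0.27 and 0.08 at the 3 times.

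Psmd13 had a fall at 3 h, a return at 24 h and a fall at 72 h. Its values were 145, 144, 136 and 145 CPM in controls, 121, 118, 125 and 126 at 3 h, 136, 133, 139.8 and 144 at 24 h, and 121, 123, 116 and 125 at 72 h (adjusted p = 0.00033, 0.48 and 0.00013). Psmd3 had the largest fall of any member at 3 h, from 91.2, 86.0, 85.5 and 102 CPM to 80.9, 62.4, 73.0 and 80.6, or 16.4% (SE 0.07 on the log2 scale, adjusted p = 0.0065). It was at 85.5, 71.5, 81.4 and 84.7 at 24 h (adjusted p = 0.11) and 79.5, 78.3, 78.5 and 75.6 at 72 h (adjusted p = 0.032).

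Of the assembly chaperones, Psmd5 was the one member lower at all 3 time points. It was at 47.0, 47.0, 48.8 and 51.3 CPM in controls, 44.8, 45.1, 37.2 and 35.7 at 3 h, 46.0, 38.8, 41.7 and 41.0 at 24 h, and 42.1, 40.3, 39.4 and 40.2 at 72 h. Control mice were above all treated mice (adjusted p = 0.0098, 0.022 and 0.0069), though the 3 h call was lost without 3 h mouse 3 and the 24 h call without control mouse 3 or 24 h mouse 2. Psmd9 was at 64.9, 66.8, 68.5 and 57.4 CPM in controls, 63.4, 53.2, 62.0 and 60.4 at 3 h, 63.6, 61.9, 62.0 and 59.5 at 24 h, and 53.0, 57.9, 52.8 and 56.8 at 72 h, where it was lower (adjusted p = 5.7e-04). Psmd10 ranged from 40.1 to 50.1 CPM over all mice and was not called. Psmc3ip went from 50.0, 47.2, 51.5 and 49.6 CPM to 53.8, 42.9, 47.9 and 53.7 at 3 h, 45.5, 40.6, 44.2 and 43.9 at 24 h, and 39.0, 42.6, 41.9 and 36.6 at 72 h. It was called lower at 24 h (adjusted p = 0.023) and 72 h (adjusted p = 7.3e-04). Psma8 was at 3.27 to 8.46 CPM in all mice and was not called.

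The falls at 24 h depended on single mice. In place of 5, 2 were called without control mouse 1 or control mouse 3, 3 without 24 h mouse 3 and 0 without 24 h mouse 2, and DESeq2 called 3. The count of 27 at 72 h ran from 22 to 29 without 1 mouse.

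Successive time points were also compared. From 3 to 24 h, 3 were higher (8.33% of tested members) and 6 lower (16.7%), beside 12.3% and 16.3% of all genes. These shares were below and about equal to those of all genes. The 3 were Psmb7 (0.16), Psmd13 (0.17) and Psmd8 (0.18), all of which had been lower than control at 3 h. The 6 were Psma3, Psma4, Psma5, Psma7, Psmb2 and Psmc3ip, with log2 changes of -0.19 to -0.10. Without control mouse 4, 3 h mouse 4 or 24 h mouse 2 the number higher was 5, 7 and 6, and without 3 h mouse 4, 24 h mouse 2 or 24 h mouse 3 the number lower was 3 each. With library size alone 22 were higher and none lower. From 24 to 72 h, none was higher by edgeR or DESeq2 and 17 were lower, beside 3.7% and 5.38%, with 24 of 36 at an unadjusted p under 0.05 in either direction. The 17 took in 5 outer ring members, 3 structural and all 3 catalytic members of the inner ring, 3 ATPases, 2 lid members and Psmd9. The largest step was that of Psmb3, -0.22 on the log2 scale (SE 0.04, adjusted p = 0.00039). Without 24 h mouse 4 or 72 h mouse 1, 11 were lower. Within classes, edgeR called 5 members lower from 24 to 72 h in myeloid progenitor-like cells and 0 in HSC-like, erythroid and MK progenitor-like cells. The median changes of members were -0.12, -0.08, -0.02 and -0.07 in the same order. Shares of all genes called in these class comparisons are not given here. The part of the make-up of the cells in the 17 falls was not tested.

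Within the HSC-like cells, members moved upward at 3 h. These cells came from 2 clusters. One had Ly6a and Hlf among its leading genes, and also Dntt, which led the lymphoid-primed (LMPP-like) cluster too. The other (27.8 to 31.1% of the class in each group) was led by B lineage genes, Jchain, Cd79a, Mzb1 and Ebf1, ahead of Ly6a and Hlf. So 2 HSC and 2 B cell markers of the lists stood among the 10 leading genes of this other cluster. At 3 h, 11 of 36 members were higher and none lower by edgeR, and 10 and none by DESeq2, beside 12.9% and 6.95% of the 9869 genes tested, with 20 members at an unadjusted p under 0.05. With library size alone 6 were higher and 3 lower, and the median of all genes moved from -0.02 to -0.24. Of the 11, 5 were in the outer ring (Psma2, Psma3, Psma4, Psma5 and Psma7), and the others were Psmb2, Psmc3, Psmd4, Psmd6, Psmd12 and Psmc3ip. At 24 h, Psmd1, Psmd4 and Psmc3ip were higher (beside 3.86%) and at 72 h Psmd1 and Psmd4 (beside 3.49%). None was lower at 24 or 72 h by edgeR or DESeq2, beside 1.39% and 1.72%, with 8 and 5 members at an unadjusted p under 0.05. Psmc3ip alone passed 2-fold, at 3 h, where 5.5% of genes did (0.821% at 24 h and 0.851% at 72 h). Without control mouse 4, which had 12 such cells, or without the cluster with B cell genes, 5 members were higher at 24 h.

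In HSC-like cells Psma3 was at 329, 298, 287 and 290.2 CPM in controls, 435, 396, 411 and 452 at 3 h, 315, 336, 287 and 325 at 24 h, and 287, 299.9, 305 and 295 at 72 h. Only the 3 h mice were above all controls, by 39.0% (log2 change 0.48, SE 0.07, adjusted p = 8.6e-07). Psmb2, a structural inner ring subunit, was at 279, 253, 264 and 237 CPM in controls and 374, 324, 343 and 405 at 3 h, then 269, 284, 277 and 301 at 24 h and 246, 259, 284 and 255 at 72 h. It too was above control at 3 h alone (36.1%, adjusted p = 1.2e-05). Psma7 rose from 441, 413, 415 and 351 CPM to 554, 504, 559 and 610.2 at 3 h (33.1%, adjusted p = 8.4e-06), and was at 417, 438, 488 and 471 at 24 h and 435, 399.8, 424 and 451 at 72 h. Psma5 rose from 197, 190.1, 197 and 191 CPM to 278, 219, 269.7 and 267 (32.7%, adjusted p = 0.00019). Psmc3 rose by 39.0% (adjusted p = 3.2e-05), from 134, 129, 135 and 183 CPM to 189, 175, 193 and 191, with control mouse 4 among the 3 h values. The catalytic members were not called in these cells, with 3 h changes of 0.02 to 0.15.

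The HSC-like change in Psmd4 lasted. It was at 131, 149.6, 124 and 84.0 CPM in controls, 188, 169, 178 and 191 at 3 h, 184, 177, 187 and 169.8 at 24 h, and 176, 196, 181 and 173 at 72 h, with no overlap, and log2 changes of 0.45, 0.44 and 0.46 (SE 0.09, 0.08 and 0.08). Psmd1 was at 78.8, 65.0, 72.3 and 68.7 CPM in controls, 95.2, 94.1, 78.8 and 94.5 at 3 h, 103, 99.9, 92.2 and 107 at 24 h, and 98.0, 109, 88.4 and 114 at 72 h (adjusted p = 0.061, 0.0015 and 0.0013). Psmc3ip, which was lower at 24 and 72 h in all cells together, went from 20.1, 17.3, 18.2 and 15.3 CPM in HSC-like controls to 39.8, 46.6, 31.4 and 50.0 at 3 h. It was at 41.5, 24.3, 40.8 and 32.9 CPM at 24 h and 21.1, 32.1, 33.5 and 30.3 at 72 h. The change at 3 h was 1.11 (SE 0.22, adjusted p = 0.00023) and at 24 h 0.85 (SE 0.20, adjusted p = 0.0066), on 95, 190, 376 and 248 UMIs in the 4 groups. All 8 interferon response genes were higher in these cells at 3 and 24 h. At 72 h 0 of these 8 were higher and 6 lower (median of the list -1.10 on the log2 scale). Of 11 tested mitosis genes 1 was called at 3 h and was higher, and 50 of 94 ribosomal protein genes were higher and 16 lower at 3 h. Of 9 immediate early genes 5 were lower at 3 h (median of the list -0.76 on the log2 scale), and of 13 mitochondrially encoded genes 8 were higher. Their part in the members' changes was not tested.

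**Figure D3:**
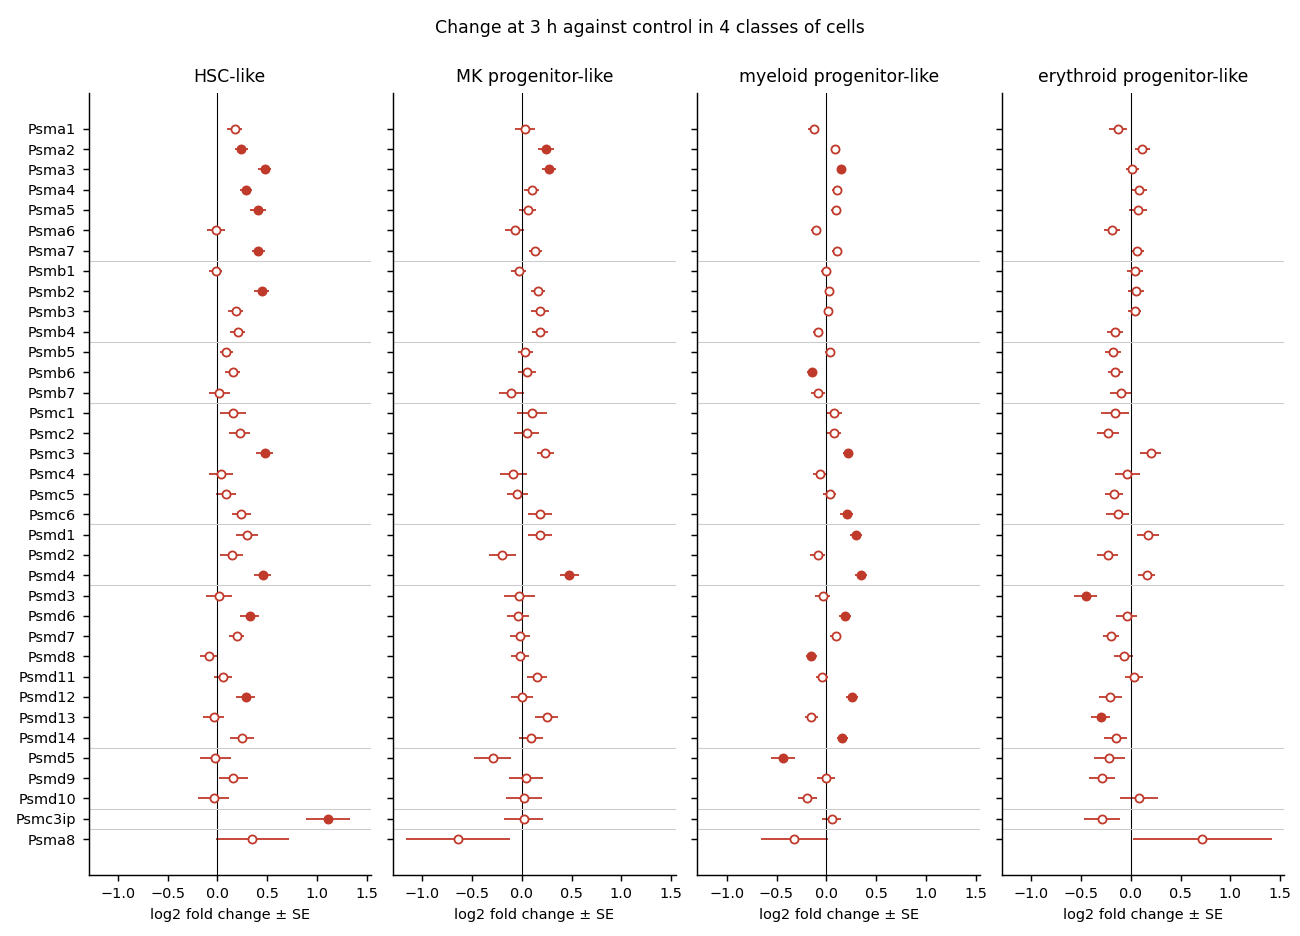
The log2 fold change at 3 h against control, with its standard error, is on the x axis for each tested member in HSC-like, MK progenitor-like, myeloid progenitor-like and erythroid progenitor-like cells, and filled points have an adjusted p under 0.05. The 11 filled points of the HSC-like panel are all to the right of 0, and the 2 of the erythroid panel are to the left.

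Myeloid progenitor-like cells were led by Ly6c2, Elane, F13a1, Irf8 and S100a8. In them 8 members were higher (22.2% of tested members) and 3 lower (8.33%) at 3 h, beside 13.7% and 10.4% of 9720 genes. With library size alone 2 were higher and 15 lower, and the median of all genes moved from -0.03 to -0.17. The 8 were Psma3, Psmc3, Psmc6, Psmd1, Psmd4, Psmd6, Psmd12 and Psmd14, and the 3 were Psmb6, Psmd5 and Psmd8. At 24 h, Psmc3, Psmc6, Psmd1 and Psmd4 were higher and Psmc3ip lower (11.1% and 2.78% of tested members, beside 8.68% and 6.32%). At 72 h, Psmd1 and Psmd4 were higher and 10 members lower (beside 7.9% and 7.04%), and none passed 2-fold at the 3 times (4.23%, 1.5% and 1.12% of genes). The class held different clusters in control and treated mice: the cluster led by F13a1, Ms4a6c and Irf8 was 35.0% of it in controls and 59.4%, 55.1% and 51.6% at 3, 24 and 72 h, and that led by S100a8 and S100a9 was 26.1%, 7.03%, 9.09% and 9.57%.

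Psmd4 in myeloid progenitor-like cells was at 166, 152, 156 and 157 CPM in controls, 215, 186, 185 and 217 at 3 h, 200.1, 199, 211 and 199 at 24 h, and 189.6, 205, 185 and 187 at 72 h. Psmd1 was at 98.4, 93.6, 100.4 and 101 CPM in controls, 122, 119, 125 and 114 at 3 h, 121, 121, 118 and 118 at 24 h, and 131, 127, 125 and 132 at 72 h. Neither overlapped with control at any time, with rises of 20.8 to 27.7% for Psmd4 and 22.2 to 31.8% for Psmd1. Psmd12 rose from 140.3, 145, 135 and 142 CPM to 176, 158, 163 and 170.4 at 3 h (19.4%, adjusted p = 0.0014), and was at 149, 134, 146 and 137 at 24 h and 138, 134, 140.2 and 127 at 72 h. The count of 8 at 3 h was 5 without control mouse 2. The 3 lower at 3 h were 1 without control mouse 1, control mouse 4, 3 h mouse 1 or 3 h mouse 2, and 0 without 3 h mouse 4. The 10 lower at 72 h were 2 to 6 without any 1 of the control or 72 h mice and 3 without 3 h mouse 4, and DESeq2 called 2. At 24 h the 4 higher were 2 without control mouse 1, control mouse 2 or 24 h mouse 4, and the 1 lower was 0 without control mouse 2 or 24 h mouse 2 and 2 without 24 h mouse 1.

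In MK progenitor-like cells, led by Pf4, Gp1bb and Itga2b, Psmd4 rose at all 3 times and Psma2 and Psma3 at 3 h. That made 3, 1 and 1 members higher (8.33%, 2.78% and 2.78% of tested members), beside 8.37%, 2.83% and 2.9% of 8834 genes. These shares were about equal to those of all genes. None was lower by edgeR or DESeq2, beside 2.37%, 0.849% and 1.32%, with 9, 3 and 7 members at an unadjusted p under 0.05, and none passed 2-fold (4.17%, 0.589% and 0.736% of genes). Control mouse 4 had 7 such cells and was left out. Psmd4 was at 166, 144 and 148 CPM in the 3 control mice, 197, 225, 217 and 208 at 3 h, 213, 209, 206 and 217 at 24 h, and 204, 222, 213 and 189 at 72 h, above control throughout (39.3%, 38.3% and 34.3%). Psma3 was at 369, 363 and 361 CPM in controls and 426, 411, 464 and 457 at 3 h (adjusted p = 0.0051). With library size alone 1 member was higher and 1 lower at 3 h.

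In erythroid progenitor-like cells, led by Car1, Klf1 and Hba-a1, no member rose at 3 h and Psmd3 and Psmd13 fell, beside 9.43% and 4.52% of 8455 genes. The 2 falls were 5.56% of tested members, close to the share of all genes. The class held different clusters by group, since the cluster led by Hba-a1 and Hbb-bs was 38.0% of it in controls and 20.9%, 23.3% and 30.4% at 3, 24 and 72 h. Control cells of that cluster had a median of 52005 UMIs, against 21860.5 in the cluster led by Car1. The part of this make-up in the members' changes was not tested. With library size alone 18 fell, and the median of all genes in the class moved from -0.03 to -0.22. By edgeR with TMM, 9 members had an unadjusted p under 0.05 in either direction. Psmd4 was higher at 24 h and none lower (beside 5.58% and 4.53%, with 7 at an unadjusted p under 0.05), and Psmd1 was higher and Psmb3 lower at 72 h (beside 3.12% and 1.64%). Each of these single calls was 2.78% of tested members. None passed 2-fold (4.96%, 1.81% and 0.816% of genes). Psmd3 was at 137, 129.9 and 133 CPM in the 3 control mice with 10 or more such cells and 121, 97.5, 89.6 and 92.9 at 3 h (26.9% lower, adjusted p = 0.0054). Psmd4 was at 255, 222 and 226 CPM in controls, 266, 241, 287 and 265 at 3 h, 304, 264, 275 and 274 at 24 h, and 280.1, 268, 258 and 276 at 72 h, so its 24 and 72 h mice were above control (adjusted p = 0.041 and 0.15) and its 3 h mice overlapped (adjusted p = 0.25). These calls depended on single mice. The 2 falls at 3 h became 4 without 3 h mouse 1, and 1, Psmd13 being lost, without control mouse 1 or 3, 3 h mouse 2, 3 or 4, 24 h mouse 1 or 2, or 72 h mouse 1. The rise of Psmd4 at 24 h was lost without control mouse 2 or 3, 24 h mouse 1 or 4, or 72 h mouse 2, and that of Psmd1 at 72 h without control mouse 1 or 3 or 72 h mouse 1, 2 or 4. The fall of Psmb3 at 72 h was lost without control mouse 1 or 3, 3 h mouse 2, 3 or 4, any 24 h mouse, or 72 h mouse 1, 2 or 4, and without control mouse 2 there were 2 falls at 24 h and 2 at 72 h.

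Whether the 3 h change differed between classes was tested with the mouse as a block. The change was more upward in HSC-like than in myeloid progenitor-like cells for 8 members, beside 3.51% of 10537 genes, and in none more downward, beside 0.902%. By unadjusted p under 0.05, 13 members differed. The 8 were Psmb2 (difference 0.44, SE 0.08, adjusted p = 0.00011), Psma3 (0.37, SE 0.07), Psma5 (0.35, SE 0.09), Psma7 (0.34, SE 0.06), Psma1 (0.32, SE 0.09), Psmb6 (0.32, SE 0.09), Psmb4 (0.30, SE 0.08) and Psmc3ip (1.10, SE 0.23, adjusted p = 0.0012). All but Psmc3ip are subunits of the core rings, and the largest change among them in myeloid progenitor-like cells alone was the 10.7% rise of Psma3. In HSC-like cells alone Psmb4, Psma1 and Psmb6 were not called (0.20, 0.17 and 0.15, edgeR adjusted p = 0.061, 0.12 and 0.14). Psmb6 was lower in myeloid progenitor-like cells alone (-0.14, adjusted p = 0.042). Without control mouse 3 the count was 5, and with library size alone 4. Against erythroid progenitor-like cells, Psmc3ip (1.40, SE 0.28), Psma3 (0.44, SE 0.10) and Psmb2 (0.36, SE 0.10) differed in the same direction, beside 1.02% of 10247 genes higher and 0.898% lower, and 19 members had an unadjusted p under 0.05. The count of 3 called members became 5 without control mouse 2 or control mouse 3, 7 without 3 h mouse 1, and 11 without 24 h mouse 3 or 72 h mouse 2. Over all fits without 1 mouse it ran from 2 to 11. Psmb2 shows the contrast: it was at 404, 392, 400.3 and 391 CPM in myeloid controls and 389, 401, 423 and 407 at 3 h, so those groups overlapped while the HSC-like groups did not.

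Summed over all members, control levels were 5193 CPM (SD 136, n = 4) in HSC-like, 6708 (SD 367, n = 3) in MK progenitor-like, 7737 (SD 54.6, n = 4) in myeloid progenitor-like and 8688 (SD 367, n = 3) in erythroid progenitor-like cells. As a share of the control mean, HSC-like cells were at 118.6%, 107.7% and 102.5% at 3, 24 and 72 h. Myeloid progenitor-like cells were at 102.8%, 102.7% and 95.6%, erythroid at 98.9%, 95.7% and 92.9%, and MK at 107.2%, 103.4% and 97.5%. These values rest on the scaling. As a plain share of UMIs, with no scaling factor, members took 0.538 to 0.563% in the HSC-like cells of control mice and 0.518 to 0.585% at 3 h, so the groups overlapped (means 0.550% and 0.557%). At 3 h the mean share went from 0.805% to 0.751% in myeloid, from 0.694% to 0.660% in MK and from 0.911% to 0.781% in erythroid progenitor-like cells. At 24 and 72 h it was 0.571% and 0.531% in HSC-like and 0.798% and 0.742% in myeloid progenitor-like cells. In MK and erythroid progenitor-like cells it was 0.697% and 0.657%, and 0.850% and 0.806%. All HSC-like mice at 72 h (0.5273 to 0.5375%) were below the lowest control mouse (0.5377%), where the scaled level was 102.5% of control. All cells together were at 98.7%, 96.9% and 88.5%, the 3 h value running from 96.9 to 100.6% without 1 mouse and being 88.8% with library size alone. All cells include those in no named class, whose summed level is not given here. Such cells were 23.7 to 29.3% of a control mouse's cells and 27.6 to 32.3% at 72 h. By role, in all cells together at 72 h, the non-ATPase base was at 112.4% of control, the ATPase ring at 91.4%, the lid at 90.4%, the outer ring at 86.6%, and the structural and catalytic inner ring at 84.6% and 86.0%.

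**Figure D4:**
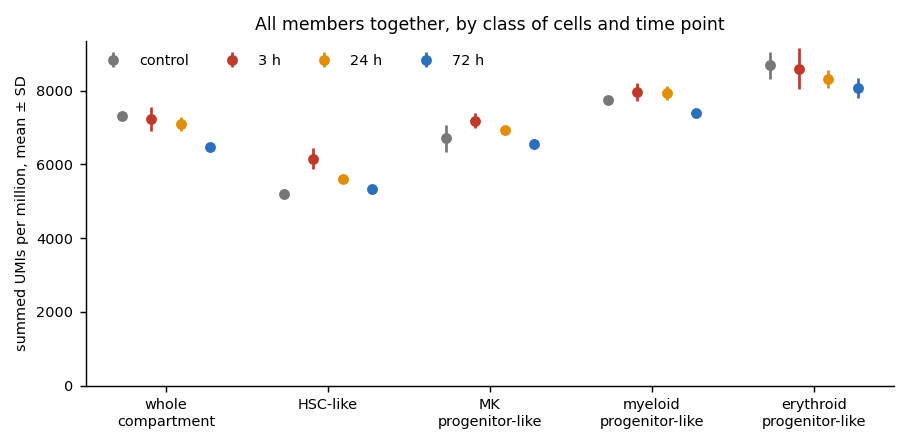
The y axis is the summed level of all members (CPM, from 0) as mean and SD over mice, for each time point in all kept cells and in 4 classes. HSC-like cells have the lowest control level, 5193 CPM, and at 3 h reach 118.6% of it on this TMM scale, while their plain share of UMIs was 0.550% in controls and 0.557% at 3 h.

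Each of the catalytic members was then set against the immunoproteasome subunit that takes its place, as the log2 ratio of their UMIs within a mouse, which no scaling touches. Psmb8 to Psmb5 was 0.56, 0.68, 0.57 and 0.63 in control mice, 1.16, 1.29, 1.44 and 1.26 at 3 h, 0.89, 0.98, 0.95 and 0.98 at 24 h, and 0.79, 0.81, 0.78 and 0.76 at 72 h. It stayed above every control mouse, and the mean difference was 0.67, 0.34 and 0.17 (2-sided exact permutation test, p = 0.0286 each, the smallest that 4 against 4 can give, adjusted p = 0.0367 over 9 comparisons). Psmb9 to Psmb6 was -0.14, -0.06, -0.14 and -0.45 in controls, 0.56, 0.56, 0.72 and 0.58 at 3 h, 0.12, 0.23, 0.07 and 0.21 at 24 h, and -0.06, -0.07, 0.04 and -0.06 at 72 h. It was higher at 3 and 24 h (adjusted exact permutation p = 0.0367) and at 72 h had p = 0.0571 in the exact permutation test (adjusted 0.0643). Psmb10 to Psmb7 was 0.24, 0.24, 0.17 and -0.08 in controls, 1.40, 1.33, 1.38 and 1.29 at 3 h, 0.36, 0.43, 0.39 and 0.37 at 24 h, and 0.32, 0.14, 0.26 and 0.19 at 72 h. Here too the 3 and 24 h mice were above control (adjusted exact permutation p = 0.0367), while 72 h mice overlapped (exact permutation p = 0.429). The immunoproteasome subunits themselves rose by 0.98 (Psmb10), 0.62 (Psmb9) and 0.60 (Psmb8) on the log2 scale at 3 h and by 0.18, 0.26 and 0.26 at 24 h, and were not called at 72 h (-0.12, -0.09 and -0.07). Without 72 h mouse 2 the Psmb8 difference at 72 h was 0.16 and without 24 h mouse 2 the Psmb10 difference at 24 h was 0.23. Both then had an adjusted exact permutation p of 0.0643, though the 3 mice left were still above every control mouse. Without control mouse 2 the Psmb9 difference at 72 h was 0.21 and passed. Within classes some calls ended. In myeloid progenitor-like cells none of the 7 called differences passed, with Psmb8 to Psmb5 at 0.20, 0.22 and 0.15, Psmb9 to Psmb6 at 0.49 and 0.21 and Psmb10 to Psmb7 at 0.65 and 0.16 (adjusted exact permutation p from 0.0643 to 0.147). With 4 mice against 4, even the smallest exact p passes only where enough of the 9 comparisons reach it. So these lost calls do not show that the ratios were unchanged. At 3 h in these cells, every treated mouse was above every control mouse for Psmb8, Psmb9 and Psmb10. Their levels were 706 to 866 CPM against 640 to 670, 280 to 316 against 206 to 256, and 199 to 250 against 148 to 169. In erythroid progenitor-like cells at 3 h Psmb8 was at 434 to 692 CPM against 189 to 256 in controls. Psmb9 was at 217 to 317 there against 103 to 125, and Psmb10 at 249 to 309 against 95.2 to 104. In MK progenitor-like cells they were at 783 to 932 against 472 to 503, 374 to 402 against 239 to 256, and 277 to 355 against 146 to 152. Pair ratios of erythroid and MK cells are not given here. In HSC-like cells 5 of the 7 passed. Of the others there, Psmb8 to Psmb5 at 72 h was 0.12 and Psmb10 to Psmb7 at 24 h was 0.34 (adjusted exact permutation p = 0.225 and 0.147), and Psmb9 to Psmb6 at 72 h was lower than control (-0.10, adjusted exact permutation p = 0.0429).

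**Figure D5:**
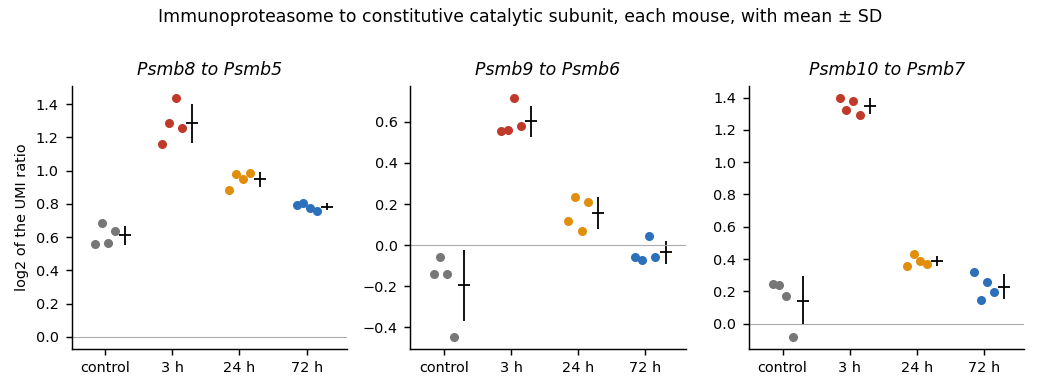
Each panel gives, for 1 pair, the log2 ratio of the immunoproteasome subunit's UMIs to those of the constitutive subunit in each mouse (points) with mean and SD (bars), in all kept cells. At 3 h all 4 mice lie above all control mice in the 3 panels, and at 72 h only the Psmb8 to Psmb5 ratio is above every control mouse.

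Other genes of the pathway were taken from a list. Of 40 tested genes on a list of 41, 16 were higher and 6 lower at 3 h, beside 19.7% and 19.2% of all genes. At 24 h 12 were higher and 7 lower, beside 14.5% and 13.8%, and at 72 h 7 and 11, beside 18.9% and 18.5%. Psme1, a subunit of the interferon-inducible activator cap, rose from 401 to 413 CPM to 730.1 to 797 at 3 h and 517 to 559.8 at 24 h, and was not called at 72 h (415 to 437). Nfe2l1 was at 26.4 to 32.2 CPM in controls and 37.3 to 48.1, 31.1 to 36.3 and 35.6 to 37.1 at the 3 times, with log2 changes of 0.65, 0.27 and 0.41 (adjusted p = 4.5e-07, 0.0055 and 0.00013). Of the 5 members with an antioxidant response element in the window, none was higher at 3, 24 or 72 h in all cells, and Psmb5, Psmb6, Psmc6 and Psmd9 were lower at 72 h. Within classes, Psmd12 was higher in HSC-like and myeloid progenitor-like cells at 3 h and Psmc6 in myeloid progenitor-like cells at 3 and 24 h, while Psmb6 was lower in myeloid progenitor-like cells at 3 h. The part of Nfe2l1 and of the antioxidant response element in the members' changes was not tested. Of the 5 with the interferon element core, Psmd4 alone was higher in all cells. Psmb3, Psmb4 and Psmd9 were lower at 72 h, Psmb4 also at 24 h, and Psmc2 was not called. The part of this element in the members' changes was not tested.

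The largest falls on the pathway list were in assembly factors and cofactors. At 3 h they were Psmg1, a chaperone of the outer ring (-0.29, SE 0.07), and Ubqln4, a ubiquitin shuttle (-0.25, SE 0.08). At 24 h they were Psmg3, another ring chaperone (-0.33, SE 0.06), and Psme3, a nuclear activator (-0.30, SE 0.06), and at 72 h Psmg3 (-0.43, SE 0.06) and Ubqln4 (-0.32, SE 0.07). By group at 72 h, 3 of 6 assembly genes were lower and 1 higher, 3 of 5 activators and inhibitors were lower, and 4 of 6 regulators were higher and 1 lower. Of all genes 18.9% were higher and 18.5% lower at that time.

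Other lists gave these values in all cells. All 8 interferon response genes were higher at 3 and 24 h, and none was higher and 1 lower at 72 h. Of 10 heat shock genes, 2, 1 and 0 were higher and 2, 5 and 4 lower at the 3 times, and of 11 immediate early genes 3, 1 and 3 were higher and 1, 1 and 0 lower. Of the 13 mitochondrially encoded genes 10, 9 and 11 were higher and none lower. Markers of macrophages summed to 1.43 to 13.2 CPM, of stroma to 1.49 to 9.35 and of mature neutrophils to 0 to 2.67 over all mice. B cell markers summed to 42.6 to 53.8 CPM in controls and 31.4 to 34.0, 43.7 to 68.6 and 39.2 to 44.3 at the 3 times, and T or NK cell markers to 341 to 620.3, 291 to 388, 381 to 429 and 325 to 372. The defining myeloid markers fell from 14056 to 19245 CPM to 7462 to 11004 at 3 h, and those of HSCs went from 298 to 416 CPM to 510.4 to 660.4. Their part in the members' changes was not tested.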

How the data were processed

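The authors aligned reads of the transcriptome libraries to mm10 with Cell Ranger 3.1.0 and deposited UMI counts per gene and barcode, not normalized, with hashtag calls from Seurat. The gene annotation is not given in the sources used here. Barcodes with a single hashtag, at least 700 genes and at most 5% mitochondrial counts were kept, which removed hashtag multiplets, while doublets from 1 mouse remain. Control cells were clustered with scanpy 1.11.5 (500 variable genes, 10 principal components, 15 neighbors, Leiden resolution 0.8) and labels passed to treated cells by their nearest control cells after a mutual nearest neighbor correction. A cluster was named from 2 or more markers among its 10 leading genes, a number set after seeing the clusters. Counts were summed per mouse, or per mouse and class with at least 10 cells. They were tested with edgeR 4.0.16 (R 4.3.3, filterByExpr, TMM, quasi-likelihood F test, all 16 mice), which was also run on simulated counts. The changes planted there were larger than most given here, and no effect of the library was simulated. So that run does not bear on calls of this size. The class of LMPP-like cells was not tested, as only 1 mouse at 3 h had 10 or more such cells. Hashtags stand for mice as the study describes, and p-values measure the spread between these mice within 1 library per group.

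Alternatives were DESeq2 1.42.0, the likelihood ratio test, library size alone, no filter, a length trend, subsets of mice or cells and a 2-fold rule. Named members were the catalytic subunits, Psmd4, Psmd14, Psmd11, Psmd12, the 6 outside the constitutive particle and, per role and time point, the largest called rise and fall. Pathway genes named were the immunoproteasome subunits and the 2 largest rises and falls at each time point. A gene that this rule names is not reported here. Other genes in class results were chosen after their values were seen. Members, lists and tests were chosen with earlier results of these data known. Sequences come from RefSeq's promoter table, and proteins were not used here.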

Additional observations from a re-analysis of the deposited data

Results flagged for a closer look

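Of 108 groups of 4 mice, 7 had 1 mouse apart from the other 3 by Dixon's test, which chance gives in about 1 of 20 groups. In all kept cells, Psmb4 was at 325 CPM in control mouse 4 (the others 303 to 306) and Psmc1 at 91.4 CPM in the same mouse (72.4 to 75.5), which had 58 cells. Psmd13 was at 136 CPM in control mouse 3 (144 to 145), Psmd4 at 202 CPM in 24 h mouse 2 (209 in each of the others), and Psmd12 at 130.4 CPM in 72 h mouse 3 (126 to 127). The log2 ratio of Psmb9 to Psmb6 was 0.72 in 3 h mouse 3 (0.56 to 0.58) and 0.045 in 72 h mouse 3 (-0.07 to -0.06).

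The change at 3 h differed between HSC-like and myeloid progenitor-like cells by 0.44 on the log2 scale for Psmb2, 0.37 for Psma3, 0.35 for Psma5, 0.34 for Psma7, 0.32 for Psma1, 0.32 for Psmb6, 0.30 for Psmb4 and 1.10 for Psmc3ip. Between HSC-like and erythroid progenitor-like cells it differed by 0.44 for Psma3, 0.36 for Psmb2 and 1.40 for Psmc3ip. All were tested with the mouse as a block in edgeR.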

How the results depend on the processing

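Counts are of members called higher or lower, with main values in brackets where given. Shares of all genes called under the alternatives are not given here. With library size alone the median of all genes at 3 h was -0.17 in myeloid, -0.22 in erythroid and -0.20 in MK progenitor-like cells. It was -0.03 in each with TMM. With library size alone, all cells at 3 h gave 1 and 27 (5 and 10), 24 against 3 h 22 and 0 (3 and 6), HSC-like cells at 3 h 6 and 3 (11 and 0), myeloid 2 and 15 at 3 h (8 and 3) and 2 and 2 at 24 h (4 and 1), erythroid 18 lower at 3 h (2), 0 and 1 at 24 h (1 and 0) and 0 and 6 at 72 h (1 and 1), MK 1 and 1 at 3 h (3 and 0), the HSC-like against myeloid difference 4 (8), the summed level at 3 h 88.8% (98.7%), and Psma3 at 3 h a reversed change of -0.017. DESeq2 gave 3 lower in all cells at 24 h (5), in myeloid cells 1, 0 and 2 lower at 3, 24 and 72 h (3, 1 and 10) and 1 lower in erythroid cells at 3 h (2). The likelihood ratio test gave 5 for the HSC-like against erythroid difference (3). Without the filter on low counts, 3 were lower at 24 h, 8 and 3 moved from 3 to 24 h, 5 were higher in myeloid cells at 3 h, 0 in erythroid cells at 24 h, and 20 differed between HSC-like and erythroid cells. With the length trend removed, 7 were higher from 3 to 24 h, 4 lower in myeloid cells at 72 h and 5 in erythroid cells at 3 h. With only the groups compared, 3 were lower from 3 to 24 h, 1 in myeloid cells at 3 h, and 1 and 0 in erythroid cells at 3 and 72 h. With only named classes, 3 were higher at 3 h and 3 lower at 24 h, and 8 and 3 moved from 3 to 24 h. With at least 20 cells, 5 HSC-like members were higher at 24 h, 1 and 4 lower in myeloid cells at 3 and 72 h, and 4 in erythroid cells at 3 h. Label transfer without correction gave 1 lower in erythroid cells at 3 h and 12 for the HSC-like against erythroid difference. Without the cluster with B cell genes, an alternative chosen after seeing the data, 5 HSC-like members were higher at 24 h. Requiring 2-fold left 0 in every count, except 1 higher in HSC-like cells at 3 h and 1 in each class difference, against myeloid and against erythroid cells. In each case this was Psmc3ip.

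Pair ratios in HSC-like cells were 0.12 (Psmb8 to Psmb5, 72 h), -0.10 (Psmb9 to Psmb6, 72 h, reversed) and 0.34 (Psmb10 to Psmb7, 24 h). In myeloid cells they no longer passed, at 0.20, 0.22 and 0.15 for Psmb8 to Psmb5 at 3, 24 and 72 h, 0.49 and 0.21 for Psmb9 to Psmb6 and 0.65 and 0.16 for Psmb10 to Psmb7 at 3 and 24 h. The cause of these shifts was not tested, and with 4 mice against 4 the smallest exact p passes only where enough of the 9 comparisons reach it. Leaving out 1 mouse moved Psmb10 to Psmb7 at 24 h over 0.17 to 0.28, Psmb8 to Psmb5 at 72 h over 0.16 to 0.20, Psmb9 to Psmb6 at 72 h over 0.077 to 0.21, and the summed level at 3 h over 96.9 to 100.6%. Counts ran over 0 to 6 lower at 24 h, 2 to 7 higher and 3 to 8 lower from 3 to 24 h, 11 to 18 lower from 24 to 72 h, and 3 to 5 higher in HSC-like cells at 24 h. In myeloid cells they ran over 5 to 10 and 0 to 3 at 3 h, 2 to 5 and 0 to 2 at 24 h and 2 to 10 lower at 72 h. In erythroid cells they ran over 1 to 4 lower at 3 h and 0 to 1 higher and 0 to 2 lower at 24 and at 72 h. The class differences ran over 5 to 9 (myeloid) and 2 to 11 (erythroid). No paired analysis was possible because the labels give no number that ties mice of different time points together, and the mouse was a block only between classes. At 3 h the erythroid class held 115 cells, with 420521 to 926973 UMIs a mouse.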
